A study of Arabidopsis thaliana with 16 samples.

Results

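The 5 genes described here, AT5G65220, AT3G13120, AT4G01310, AT3G54210 and AT1G29070, encode proteins of the plastid ribosome and were taken by locus from the platform annotation, which paired each of them with 1 single-gene feature. They are 5 of the 692 single-gene features on an array of 3439 features. Total RNA came from wild-type plants of Arabidopsis thaliana, ecotype Landsberg, in 1 group exposed to white light and in the other finally grown in blue light, both for 48 hours at 20 µE. Each light group had 8 array columns with replicate numbers 1 to 8. No source used here gives the organ, the age or the earlier growth of the plants, or says whether the replicates were separate plants.

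Plastids have their own ribosome of the bacterial type, which translates the proteins encoded in the plastid genome, among them core subunits of the photosystems and the large subunit of Rubisco. Its RNAs and a part of its proteins are encoded in the plastid, while the remaining ribosomal proteins are encoded in the nucleus, made in the cytosol and imported. Each ribosome holds its proteins in fixed proportions. The question here was whether the transcripts of these nuclear genes moved together, between the light conditions and from column to column. By general knowledge of the plastid ribosome, and not from the files, AT3G13120 encodes protein S10 of the small subunit, which lies near the decoding site. Of the large subunit, AT4G01310 encodes L5, which binds the 5S RNA, AT5G65220 encodes L29, which lies near the exit of the peptide tunnel, AT3G54210 encodes L17, and AT1G29070 encodes L34.

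The deposited values were linear intensities of unstated scaling, from 0 to at most 100. Total signal per column ran from 1044 to 3320 in white light, where replicates 7 and 8 were lowest, and from 3067 to 3735 in blue light. Each of the 16 columns correlated best with the column of the neighbouring number (1 with 2, 3 with 4, 5 with 6, 7 with 8). Neighbours were therefore averaged on the log2 scale, and each average, numbered 1 to 4 within a light group, was treated as 1 sample. Precision is limited by the number of averaged samples, 4 per light group, which may not be separate plants. The organ could not be checked from markers, since of the 10 genes of green tissue listed for this purpose only the antenna gene LHB1B2 (AT2G34420) had a single-gene feature. None of the listed root, seed, flower or senescence markers had a single-gene feature.

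As deposited, 4 of the 5 genes gave more signal in blue light than in white light, and the gene of L29 was the exception. The intensity of AT5G65220 (L29) was 0.787 at the lowest, 3.48 at the median and 5.14 at the highest over the 8 white light columns, against 1.24, 1.84 and 2.55 in blue light. White light replicates 1 to 6 were all above every blue light column, and white light replicates 7 and 8, at 0.787 and 0.854, were below every one. The intensity of AT3G13120 (S10) was 0.0187, 0.0839 and 0.166 in white light and 0.217, 0.481 and 0.589 in blue light, so that no columns of the groups overlapped.

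For AT4G01310 (L5) the lowest, median and highest intensities were 0.105, 0.220 and 0.327 in white light and 0.563, 0.720 and 0.841 in blue light, again with no overlap. For AT3G54210 (L17) they were 0.155, 0.297 and 0.579 in white light and 0.551, 0.745 and 0.892 in blue light, where white light replicate 2 was above the lowest blue light column. AT1G29070 (L34) was at 0.0146, 0.0729 and 0.261 in white light. It was listed at 0 in blue light replicates 7 and 8, while the other 6 blue light columns ran from 0.238 to 0.372. White light replicate 2, at 0.261, lay within that range. Since a value of 0 may stand for a failed estimate, blue light replicates 7 and 8 were treated as missing and AT1G29070 has 3 averaged samples in blue light.

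**Figure D1:**
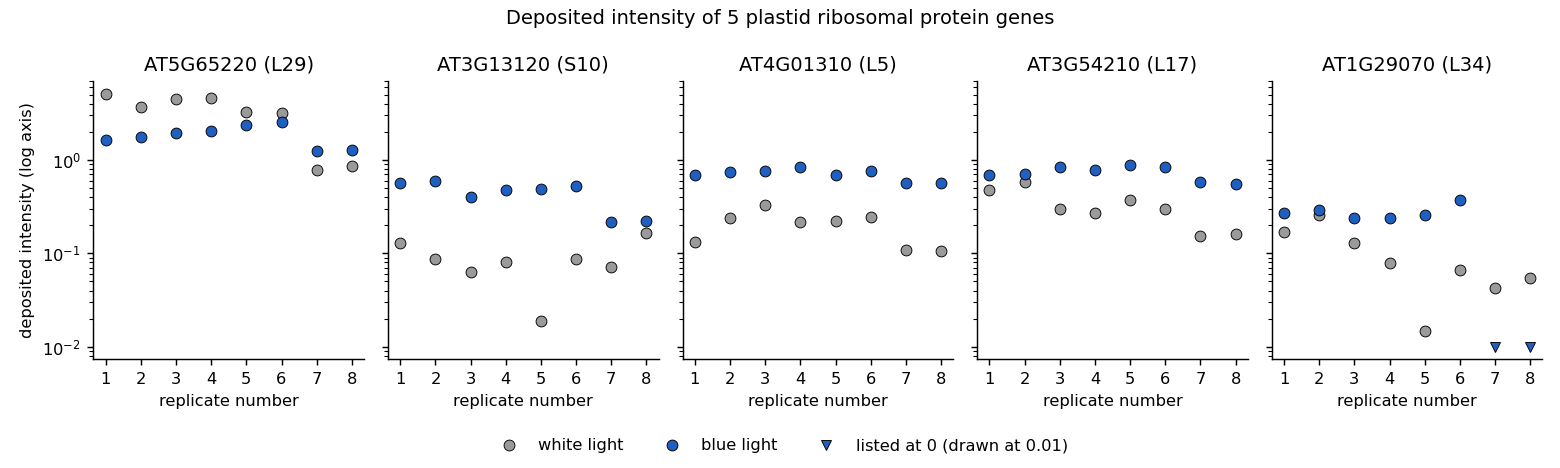
Deposited intensity (log axis) of the 5 genes in each of the 8 white light (grey) and 8 blue light (blue) columns, by replicate number. AT5G65220 is higher in white light in replicates 1 to 6 and lower in replicates 7 and 8. At the same replicate number the other genes lie higher in blue light, except where AT1G29070 is listed at 0. Across replicate numbers, columns of AT3G54210 and of AT1G29070 overlap between the groups.

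The higher signal of these 4 genes in blue light went with a higher signal of the whole array. The averaged samples of S10, L5, L17 and, over those measured, L34 did not overlap between the light groups as deposited, and the same held, in the same direction, for 49.4% of the 2864 features tested. The median log2 change of all tested features was 1.36 as deposited. The 4 genes passed the limma test as higher in blue light as deposited, as did 53.4% of the tested features, so these calls are read against a background in which most features were higher. The changes below are therefore after quantile normalization, which gives every column the same distribution, and are changes relative to the other features on the array.

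After quantile normalization, L29 fell in blue light and the other 4 genes did not pass the test. The normalized log2 levels of AT5G65220 were 1.58, 2.61, 1.42 and 1.03 in white light samples 1 to 4 and 0.19, 0.61, 0.95 and 0.11 in blue light samples 1 to 4. Every blue light sample was below every white light sample. The gene fell by 1.19 on the log2 scale (SE 0.37, n = 4 averaged samples per group, 95% interval -2.01 to -0.38, limma adjusted p = 0.0315), which is 2.29-fold lower. In total RNA of whole samples, fewer cells that express a gene and less RNA of it per cell cannot be told apart.

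The call on L29 was not firm. It ended when white light replicates 1 and 2 (-1.20, adjusted p = 0.0513) or 3 and 4 (-0.86, adjusted p = 0.0707) were left out. It also ended without blue light replicates 1 and 2 (-1.12, adjusted p = 0.0873), 3 and 4 (-1.27, adjusted p = 0.0555) or 7 and 8 (-1.07, adjusted p = 0.0664). The call held without white light replicates 5 and 6 (-1.24, limma adjusted p = 0.0459) or 7 and 8 (-1.39, adjusted p = 0.0136). It held too without blue light replicates 5 and 6 (-1.39, adjusted p = 0.0353). As deposited the change was -0.58 and with median centring -2.06, of which the second passed (adjusted p = 0.00186).

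S10, the small subunit protein gene, was more variable. AT3G13120 had normalized log2 levels of -3.00, -3.11, -4.02 and -1.53 in white light and of -1.80, -1.98, -1.84 and -2.62 in blue light. White light sample 4 was above all blue light samples, and the other 3 white light samples were below them. The columns of white light sample 4 differed, at -2.17 in replicate 7 and -0.89 in replicate 8. The change was 0.85 (SE 0.47, 95% interval -0.18 to 1.89, limma adjusted p = 0.189). Without white light replicates 7 and 8, the columns of lowest total signal, it was 1.28 and passed (adjusted p = 0.0143), and without replicates 7 and 8 of both groups it was 1.47 and passed (adjusted p = 0.00681).

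L5, the 5S RNA binding protein gene, overlapped between the groups. AT4G01310 had normalized log2 levels of -2.30, -1.20, -1.63 and -1.55 in white light and of -1.44, -1.09, -1.30 and -1.18 in blue light. Its change was 0.42 (SE 0.29, 95% interval -0.22 to 1.06, limma adjusted p = 0.298), and 0.20 (adjusted p = 0.622) without white light replicates 1 and 2, whose mean was the lowest of the 8.

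L17 was the steadiest of the 5. AT3G54210 had normalized log2 levels of -0.91, -1.10, -1.20 and -0.96 in white light and of -1.51, -1.06, -1.04 and -1.18 in blue light. Its change was -0.15 (SE 0.25, 95% interval -0.70 to 0.39, limma adjusted p = 0.657), and it turned to 0.59 scaled to total signal and 1.29 as deposited. Without blue light replicates 1 and 2 it was -0.05. Its SD within a light group, 0.180 on the log2 scale, lay at percentile 1.57 of the tested features, whose median was 0.487.

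L34 gave the widest interval. AT1G29070 had normalized log2 levels of -2.07, -2.55, -4.34 and -2.73 in white light, and of -2.94, -2.83 and -2.53 in blue light samples 1 to 3, with sample 4 missing. The change was 0.16 (SE 0.50, n = 4 and 3, 95% interval -0.96 to 1.27, limma adjusted p = 0.834). When low values were instead set to a floor at the 10th percentile, it was -0.37 and did not pass (limma adjusted p = 0.333). This floor keeps blue light sample 4 and also raises the values below it in white light. It was 0.43 without white light replicates 1 and 2 and -0.31 without white light replicates 5 and 6.

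**Figure D2:**
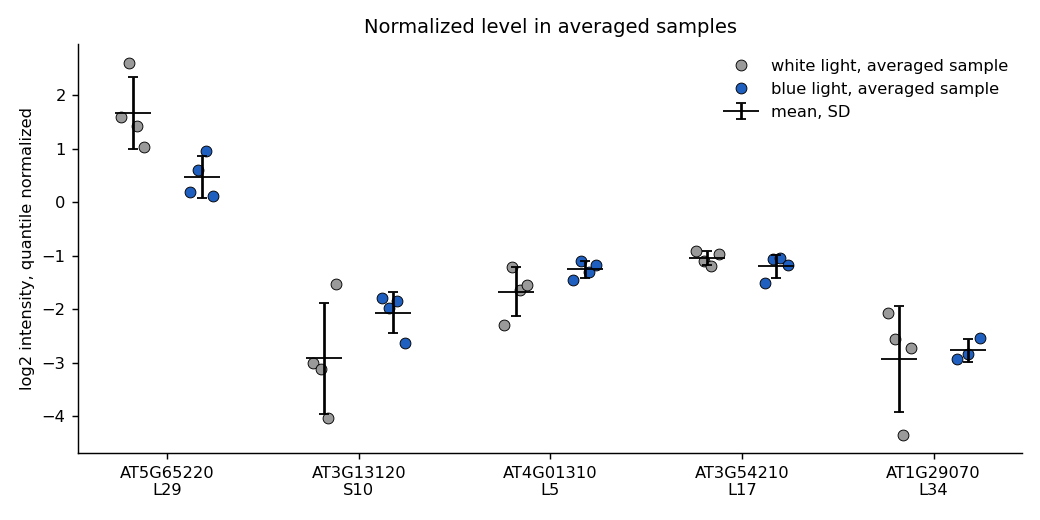
Quantile normalized log2 intensity of each gene in the averaged samples (grey, white light, n = 4; blue, blue light, n = 4, or 3 for AT1G29070), with mean and SD. The groups separate for AT5G65220, at 1.66 against 0.47, and overlap for the other 4 genes.

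Of the 5 genes, 1 passed as lower and 0 as higher, where 16.4% and 15.9% of all tested features passed in these directions. In either direction 32.4% of tested features passed, so 1 of 5 is no more than the background. The median log2 change of the 5 genes was 0.16, and that of all tested features 0.00. The averaged samples of the groups did not overlap for 1 of the 5 genes, L29, against 33.3% of tested features in either direction and 17.4% as lower in blue light. The genes also differed in how far the averaging of neighbours mattered. Single neighbouring columns differed with an SD of 0.643 for S10 and 0.612 for L34, and averaged samples within a light group with SDs of 0.777 and 0.776. For L29 the SD between neighbours was 0.140, against 0.550 within a light group.

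Median centring, scaling to total signal and no scaling shift all features of a column alike and differ in where 0 lies. The gaps among L29, S10, L5 and L17 are therefore the same under these 3. L34 is missing in a blue light sample, so its gap to the others also varied with the scaling. The changes of L29 were -1.19 with quantile normalization, -1.10 with cyclic loess, -2.06 with median centring, -1.28 scaled to total signal and -0.58 as deposited. Those of S10 were 0.85, 0.91, 0.95, 1.73 and 2.43 in the same order. Scaled to total signal, S10 (adjusted p = 0.0248) and L5 (1.21, adjusted p = 0.0119) passed as higher, as did 37.5% of tested features, and L29 passed as lower (adjusted p = 0.0156).

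**Figure D3:**
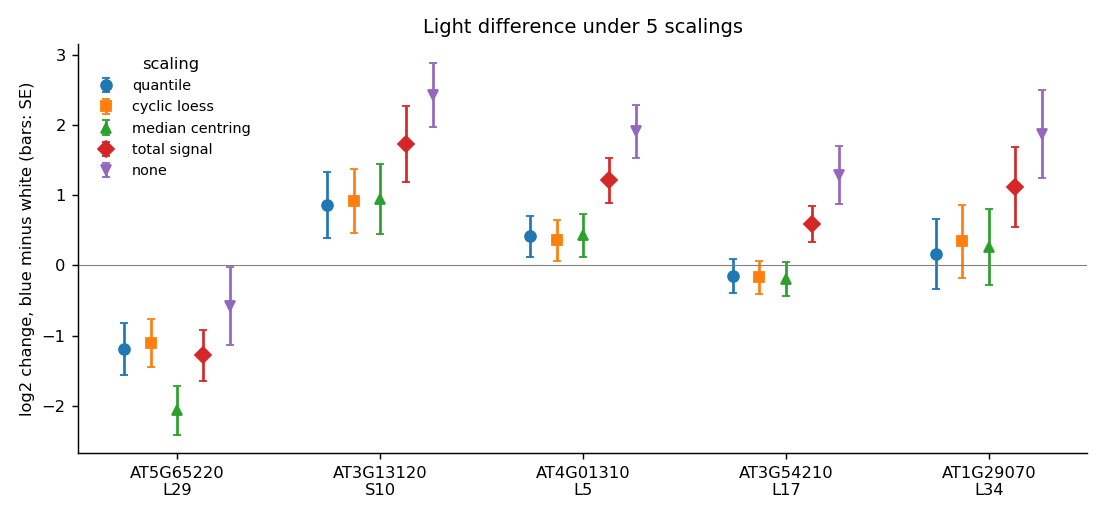
Log2 change from white to blue light of the 5 genes under 5 scalings of the columns, with the standard error of the limma fit. AT5G65220 lies below 0 under each scaling, and AT3G54210 changes sign between quantile normalization (-0.15) and the deposited values (1.29).

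Ratios within a column need no scaling, and were computed after the values had been seen. The deposited log2 ratio of L29 to L17 was 3.06, 4.01, 3.29 and 2.37 in white light samples 1 to 4 and 1.29, 1.29, 1.51 and 1.16 in blue light samples 1 to 4. It was lower in blue light in each of the 4 number pairs, with a mean change of -1.87. The ratio of L29 to L5 changed by -2.49 and that to S10 by -3.01, with no overlap of the groups in either. Each of these 3 ratios had an exact two-sided permutation p of 0.0286, the smallest that 4 against 4 allows, and an adjusted p of 0.0952 over the 10 gene pairs, which did not pass. A pass would also have needed ratios among the other genes at that smallest p. The adjusted value therefore cannot decide whether these ratios of L29 changed. Exchanging labels only within number pairs gave an exact p of 0.125, the smallest possible with 4 pairs. The ratio of L29 to L34 changed by -2.28 (n = 4 and 3, exact permutation p = 0.0571).

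A lower ratio in blue light was not particular to the ribosomal partners. The ratio of L29 to each of the 571 other tested single-gene features was lower in blue light with no overlap for 64.8% of them, with a median change of -1.96. Among the 6 pairs of the other 4 genes the ratios changed by between -0.46 and 1.14, and the lowest exact permutation p was 0.0571, for L5 to L17.

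Deposited changes were smaller among the features of high signal near L29 than among those near the other 4 genes. The part of this in the fall of L29 was not tested. The feature of L29 lay at percentile 96.1 of the deposited mean log2 signal, and the 200 tested features nearest to it in signal had a median deposited change of 0.28 (quartiles -0.31 and 1.0), against medians of 1.45 to 1.65 for the features nearest to the other 4 genes. L29, at -0.58 as deposited, was below the median of its neighbours by 0.86, and 18.5% of them were lower still. S10, at 2.43, was above the median of its neighbours by 0.90, with 80.5% of them lower. Percentiles of signal describe the features, and amounts of different transcripts were not compared. LHB1B2, the one green tissue marker measured, was also a bright feature, at percentile 99.2 of the normalized level, and its change was -0.86 (limma adjusted p = 0.0925).

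Whether the genes move together from sample to sample was read from their deviations from the mean of their own light group, so that the light difference does not enter. As deposited the 10 gene pairs had a median Pearson r of 0.54 over 8 averaged samples (7 for pairs with L34). All pairs of the 555 single-gene features measured in every averaged sample had a median r of 0.56, and 51.5% of those pairs had an r at or above that of the 5 genes. In white light sample 4 the deposited deviations were -1.72 for L29, -0.79 for L5, -0.91 for L17 and -0.63 for L34, and the median of all tested features deviated by -0.97. S10 was the exception there, at 0.52, with intensities of 0.0711 in replicate 7 and 0.166 in replicate 8.

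The deposited deviations of each gene were also set against the level of the array, with no test of whether the genes differed in this. The deposited deviations of L17 correlated with those of the median of all tested features with r = 0.95 (exact permutation p = 0.00868, adjusted p = 0.0434 over 5 genes, rho = 0.81, exact permutation p = 0.0451, adjusted p = 0.226, n = 8). Since same-numbered samples deviated together, the 4 numbers were also exchanged together in both light groups. The exact permutation p of L17 was then 0.0417, the smallest possible, and 0.167 adjusted over 4 genes, which did not pass. A pass would have needed all 4 genes at the smallest p, so this adjusted value cannot decide whether L17 followed the array. Without the 2 samples farthest from the median the r of L17 was 0.75. For L29 r was 0.88 (exact permutation p = 0.0503, rho = 0.52, exact permutation p = 0.307) and fell to 0.36 without the 2 farthest samples, so it rests on those samples. For S10 r was 0.00 (exact permutation p = 1, rho = -0.07, exact permutation p = 0.885), and 0.56 without the 2 farthest samples. For L5 and L34 it was 0.69 and 0.46, with exact permutation p of 0.219 and 0.646 and rho of 0.31 and 0.36 (exact permutation p = 0.491 and 0.569). Without the 2 farthest samples r was 0.53 for L5 and -0.80 for L34, so the values of S10 and L34 rest on those samples.

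After quantile normalization the correlations were lower. The median r of the 10 pairs was 0.23, and 35.1% of all pairs of single-gene features had an r at or above that value. Of the 10 pairs 6 had an r above 0, against 50.05% of all pairs. In white light sample 4, 4 of the 5 genes were above their group mean, L29 being below it at -0.63, and in white light sample 3, 1 of the 5 was above. In blue light samples 2 and 3, 4 of the 5 were above, and in blue light sample 1 only S10 was.

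**Figure D4:**
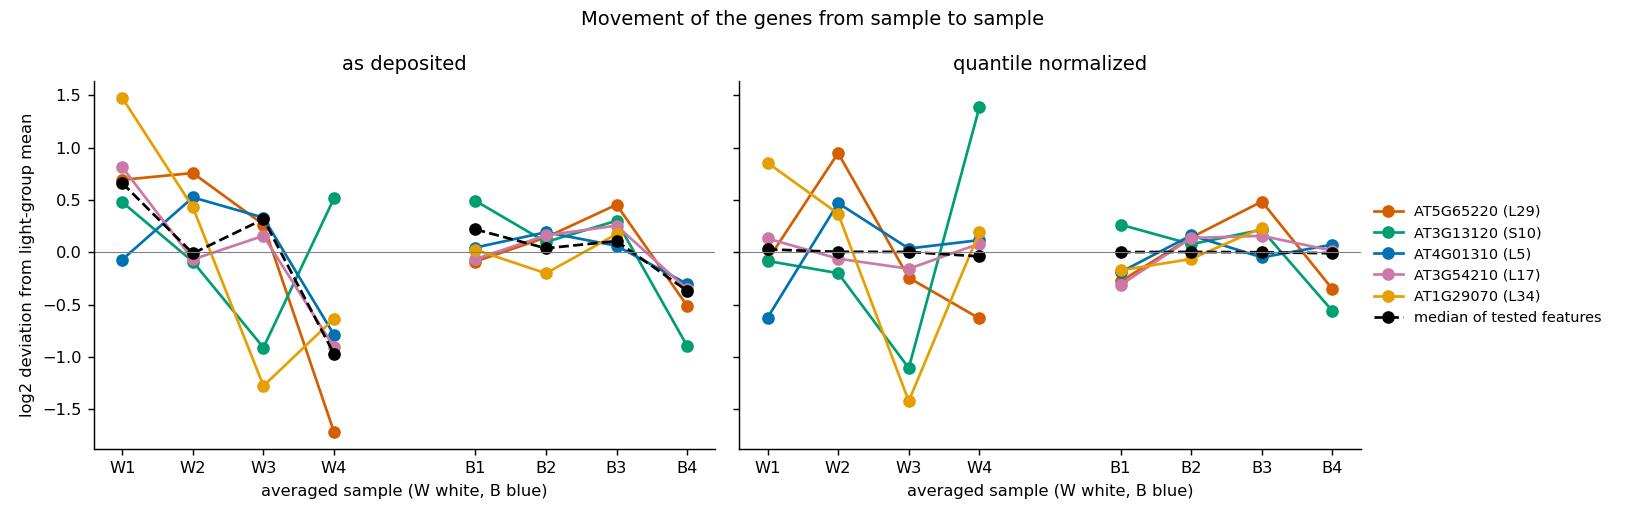
Log2 deviation of each gene from its light-group mean in white light (W) and blue light (B) averaged samples 1 to 4, as deposited and after quantile normalization, with the median of all tested features (dashed). Lines only join the points of 1 gene. As deposited most genes drop in W4 and B4 with the median, and after normalization they spread.

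The pair of S10 and L34 had the highest r after normalization, 0.55 (exact permutation p = 0.444, rho = 0.11, exact permutation p = 0.847, n = 7). Both were lowest in white light sample 3, where replicate 5 gave intensities of 0.0187 and 0.0146, and without that sample r was -0.56. Leaving out any other sample kept r above 0, at 0.97 without white light sample 4. Without the 2 samples farthest from the median of S10 it was 0.40. L17 and L34 had r = 0.54 (exact permutation p = 0.0486, adjusted p = 0.486 over 10 pairs, rho = 0.50, exact permutation p = 0.160, n = 7), and r was 0.49 without the 2 samples farthest from the median of L17. L29 and L5 had r = 0.39 (exact permutation p = 0.498, rho = 0.19, exact permutation p = 0.712), which was -0.37 without the 2 farthest samples. The lowest r was that of L5 and L34, -0.26 (exact permutation p = 0.646, rho = -0.07, exact permutation p = 0.903), which was 0.57 without white light sample 1 and 0.25 without the 2 farthest samples. With any other sample left out r stayed below 0, at -0.66 without white light sample 3. The adjusted p over the 10 pairs was 0.486 or higher for every r and 0.974 for every rho, so no pair passed at this number of samples. As deposited the highest r was that of L29 and L5, 0.87 (exact permutation p = 0.0399, adjusted p = 0.1997, rho = 0.69, exact permutation p = 0.102), and it was -0.05 without the 2 farthest samples. With the numbers exchanged together in both light groups, the exact permutation p of this r was 0.125.

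**Figure D5:**
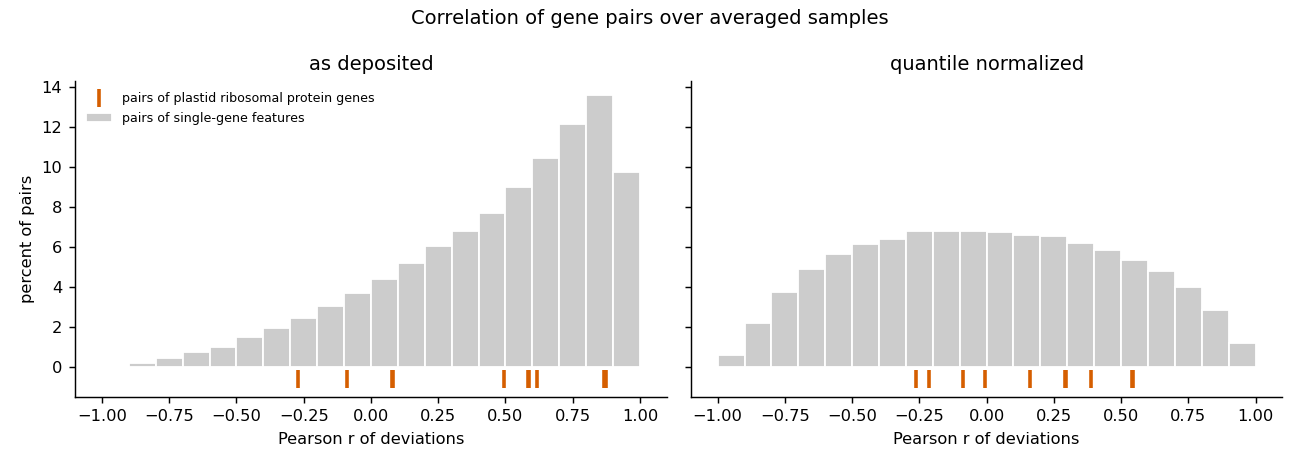
Distribution of Pearson r of deviations over the averaged samples for all pairs of single-gene features (grey bars, percent of pairs) and for the 10 pairs of the 5 genes (orange marks). The marks lie across the bulk of the grey distribution, around a median of 0.54 as deposited and 0.23 after quantile normalization.

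The features most like each gene in their deviations were picked as the highest r among the 551 other single-gene features measured in every averaged sample, and so are given with no test. They were AT1G01250 (r = 0.96) and AT3G04210 (r = 0.95) for L29, AT4G20760 (0.89) and AT4G31470 (0.88) for S10, and AT2G46850 (0.95) and AT2G29180 (0.94) for L5, over 8 averaged samples. For L17 they were AT2G39360 (0.85) and UBA1A (0.74), and for L34, over 7 samples, AT2G38950 (0.98) and AT4G24160 (0.97). Of the pair most like L29, AT3G04210 fell by 1.45 (limma adjusted p = 0.0146) and AT1G01250 changed by 0.04 (adjusted p = 0.913).

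Of 41 nuclear genes listed for plastid ribosomal proteins, 14 of the small and 27 of the large subunit, 6 were measured by a single-gene feature, and of the 5 that passed the filter for testing 1 fell and 0 rose. The sixth, AT1G64510, which encodes protein S6 of the small subunit, was listed at 0 in all 8 blue light columns and in 6 of the 8 white light columns, and the highest of its values was 0.0154. It could not be tested. None of the 10 plastid translation factors and none of the 7 genes of plastid transcription on the lists had a single-gene feature, so these partners of the ribosome are not described here.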

How the data were processed

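The deposited table held 1 linear intensity per feature and sample, between 0 and 100. No source used here says how the authors corrected background, read the images or scaled the values. Features were named through the platform annotation and the TAIR10.1 gene table, which carries no product names, so other ribosomal proteins could not be picked out. The 5 genes and the lists were chosen with earlier results of these data known. Entries of 0 were set as missing, and features above 0 in at least 6 of 8 columns of each group were kept (2864), put on the log2 scale and quantile normalized. Neighbouring replicate numbers were averaged (4 against 4).

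The light groups were compared by limma (version 3.58.1, R version 4.3.3) with lmFit and eBayes, as two-sided tests with no covariate, and with Benjamini-Hochberg adjustment over all tested features and a threshold of 0.05. The p-values measure the spread between averaged samples, which may be technical. Correlations used deviations from light-group means, with exact two-sided permutation within each group. Same-numbered samples of both groups deviated together (r = 0.39, 0.46, 0.19 and 0.35 across features, each above the limit of 0.1), which met the rule for pairing by number. The main fit and the permutations within groups did not use this pairing. The replicate block, the exchange within number pairs and the exchange of numbers jointly in both groups did. The quantile normalization, the averaging, the limma fit and Pearson r of deviations were tested on simulated data without values of 0. The permutation tests, rho, the ratios, the comparison with features of like signal and the alternatives were not tested in this way.

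The genes named were the 5 genes, the listed genes of the plastid ribosome and, for each of the 5, the 2 other single-gene features with the highest r. The lists covered both plastid ribosomal subunits, plastid translation factors, plastid transcription, and markers of green tissue, root, seed, flower and senescence. Alternatives covered the scaling, low values, the filter, the test and its variance model, separate columns, the replicate block and samples left out. The ratios within a column, the comparison with features of like signal and the joint exchange of numbers were added after the data were seen.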

Additional observations from a re-analysis of the deposited data

How the results depend on the processing

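L29 was below 0 under all 21 alternatives and lost its call under 7 of them. The count of 927 changed features was 1574 without normalization (97.2% higher in blue light, against 49.2%) and 1483 with 16 columns as separate samples, and stayed within 1.5 times under the other 19. Scaled to total signal 83.4% of the calls were higher. Of the 5 genes, 4 were called without normalization (55% of all features), 3 scaled to total signal (44.9%), 2 without replicates 7 and 8 of both groups (39.2%), 0 by the unmoderated two-sample test (25.5%; L29 at -1.19, adjusted p = 0.0707), and 0 to 2 when 1 averaged sample was left out (22.6% to 35.1%).

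Without normalization L29 (-0.58) did not pass, while S10 (2.43), L5 (1.91), L17 (1.29) and L34 (1.86) passed. Scaled to total signal S10 (1.73) and L5 (1.21) passed and L17 was at 0.59. S10 was 1.47 without replicates 7 and 8 of both groups. L34 was -0.37 with a floor at the 10th percentile of values above 0 and -0.45 with that value (0.124) as a pseudocount. Both settings keep the blue light sample listed at 0 and also raise low values. White light sample 3 of L34 was the lowest in the main fit, at -4.34. What turned the sign was not tested. With 1 averaged sample left out, L29 ran from -1.39 to -0.86, S10 from 0.48 to 1.28, L5 from 0.20 to 0.56, L17 from -0.21 to -0.05 and L34 from -0.31 to 0.43. L34 was not tested where blue light samples 1, 2 or 3 were left out, or with features above 0 in all 16 columns. With the replicate block 1195 features passed, and L29 again (-1.19, adjusted p = 0.0174), and no call on the 5 genes changed. The median r of the gene pairs ran from -0.01 to 0.54 over 19 alternatives (jackknife SE 0.42). By Dixon's test, which with 4 samples flags only a very distant value, 0 of 25 groups of 4 averaged samples held a sample far from the others. L29 as deposited was at -0.29 in white light sample 4, against 1.70 to 2.19 in the other white light samples, and was not flagged.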
